A study of Mus musculus with 21 samples.

Results

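The enzymes that build cholesterol and fatty acids, with the proteins that sense sterols and switch those enzymes on, were followed across 3 macrophage populations of the mouse kidney. The set was named by gene symbol and holds 30 genes, of which 16 encode sterol enzymes, 6 encode regulators or a sterol carrier and 8 encode enzymes of fatty acid synthesis and desaturation. Of these, 29 were found among the 34236 symbols of the count table; *Hmgcs1* was found only in a second table of log2 values. RNA was sequenced from macrophages sorted as F4/80+CD64+ cells from kidneys of male C57BL/6J mice aged 24 weeks, with no transgene or drug in any group. KRM, the long-lived resident macrophages, gave 4 libraries from Sham kidneys and 3 from RAS kidneys. CD11chiMϕ and CD11cloMϕ, which the study describes as monocyte-derived, gave 3 libraries each from Sham kidneys and 4 each from RAS kidneys. RAS is renal artery stenosis, made by a cuff around the right renal artery, and Sham mice had surgery without the cuff. Sorting took 5 hours per the labels, and cells positive for lymphocyte, natural killer cell or neutrophil surface markers had been gated out. The labels do not say whether libraries of a group came from separate mice, so the p-values below measure the spread between libraries, which may in part be technical.

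Cholesterol is made from acetyl-CoA through mevalonate, farnesyl diphosphate, squalene and lanosterol, and most enzymes of that path are transcribed under SREBP2, the product of *Srebf2*. SREBP proteins are held in the endoplasmic reticulum by SCAP and the INSIG proteins while sterol is plentiful, and are carried to the Golgi and cut into active factors when it falls. SREBP1, the product of *Srebf1*, acts more on *Fasn*, *Acaca* and the desaturases, and in macrophages the balance of these genes sets membrane composition and the supply of sterol ligands and polyunsaturated fatty acids.

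Because these genes are known to share control by SREBP proteins, which act together with the CCAAT-binding factor NF-Y, the 250 bases before the transcription start were read from RefSeq (GRCm38.p6). Windows were held for 23 of the 30 genes. Not in the promoter table were *Sqle*, *Fdft1*, *Fdps*, *Scd1*, *Scd2*, *Fads1* and *Stard4*. The letters CCAAT, searched on both strands, were present in 17 of the 23 (73.9%) and in 37.5% of 27025 genes. The sterol regulatory element, searched as TCACNCCAC on both strands, was present only in *Hmgcs1* (4.3% of the 23 against 1.2% of genes), and the E-box CACGTG in 5 (21.7% against 6.9%). A match is a description of letters and not a site shown to be bound. The 4 windows below are shown because their genes are *Hmgcs1*, which holds the sterol element, and 3 members whose levels differed between populations: *Mvd*, *Cyp51* and *Insig1*. They lie at chr13:119690101-119690350 (plus strand), chr8:122443423-122443672 (minus), chr5:4104698-4104947 (minus) and chr5:28071162-28071411 (plus). Each is written 5′ to 3′ along the gene, with CCAAT or its reverse complement ATTGG in capitals and, in *Hmgcs1*, the sterol element TCACCCCAC in capitals too.
Hmgcs1: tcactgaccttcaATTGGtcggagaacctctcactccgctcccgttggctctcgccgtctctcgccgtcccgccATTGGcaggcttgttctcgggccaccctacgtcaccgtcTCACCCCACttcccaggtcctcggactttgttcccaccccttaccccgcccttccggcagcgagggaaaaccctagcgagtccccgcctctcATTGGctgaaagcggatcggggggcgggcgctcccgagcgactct
Mvd: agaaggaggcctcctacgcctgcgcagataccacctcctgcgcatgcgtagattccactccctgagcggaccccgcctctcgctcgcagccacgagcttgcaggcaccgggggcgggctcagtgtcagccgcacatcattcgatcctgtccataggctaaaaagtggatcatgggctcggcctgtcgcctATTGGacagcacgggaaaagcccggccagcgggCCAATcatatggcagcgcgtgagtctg
Cyp51: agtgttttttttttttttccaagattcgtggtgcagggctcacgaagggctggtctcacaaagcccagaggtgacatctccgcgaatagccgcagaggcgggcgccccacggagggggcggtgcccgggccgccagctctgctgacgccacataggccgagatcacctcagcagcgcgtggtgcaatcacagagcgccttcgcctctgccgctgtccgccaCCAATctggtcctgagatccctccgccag
Insig1: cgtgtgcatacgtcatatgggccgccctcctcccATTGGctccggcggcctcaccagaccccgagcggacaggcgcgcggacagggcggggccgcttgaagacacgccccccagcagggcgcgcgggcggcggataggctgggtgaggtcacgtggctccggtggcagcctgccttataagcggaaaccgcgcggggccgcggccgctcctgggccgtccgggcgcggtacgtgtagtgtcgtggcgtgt

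Libraries held 6891177 to 18592427 estimated counts, and levels are given as CPM, counts per 1000000 after TMM scaling, in the order of the replicate number. The 8 macrophage markers summed to between 1700.1 and 8978 CPM, and none was at 0 in any group. The lowest sum was in CD11chiMϕ Sham replicate 3. The 11 tubular epithelial markers summed to 199, 156 and 10657 CPM in CD11chiMϕ Sham, to 84.9, 82.2 and 4898 in CD11cloMϕ Sham and to 282, 239, 1746 and 313 in KRM Sham. They were 1159, 4855 and 3740.2 CPM in KRM RAS, and at most 897 CPM in the RAS libraries of the other populations. The Sham libraries numbered 3 and KRM RAS replicates 2 and 3 therefore stood apart, and member results that rest on them are given with and without them. In bulk libraries of sorted cells, fewer cells expressing a gene and less RNA per cell cannot be told apart.

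Levels can be compared between genes only in the deposited log2(TPM + 1) table, which is scaled for transcript length. In KRM Sham the highest member on that scale was *Fads1*, the desaturase of the last step to arachidonic acid, at 6.67 ± 0.13 (SD, n = 4). It was followed by *Ebp*, a sterol isomerase, at 6.25 ± 0.17, *Acly*, which makes cytosolic acetyl-CoA from citrate, at 5.72 ± 0.21, and *Fdps*, the farnesyl diphosphate synthase, at 5.16 ± 0.14. The libraries of *Ebp*, from 6.11 to 6.50, overlapped those of *Fads1*, from 6.47 to 6.75, but not those of *Acly*, from 5.41 to 5.90, which in turn overlapped none of *Fdps*, from 4.99 to 5.31. The lowest was *Scd1*, a stearoyl-CoA desaturase, at 0.66 ± 0.13. *Hmgcs1*, which makes HMG-CoA and was read only here, was at 4.14, 4.35, 4.94 and 4.42 in KRM Sham and at 5.88 and 5.74 in KRM RAS replicates 2 and 3. These were log2(TPM + 1) values after quantile normalization by the authors, and KRM RAS replicate 1 was left out because its column did not match its counts (r = 0.09 of its deviations from the mean, against 0.915 to 0.966 in the other 20 libraries). Which of its columns holds that library is not known. Across genes its counts resembled KRM Sham (r from 0.945 to 0.954) more than KRM RAS replicates 2 and 3 (at most 0.855), and its log2 column resembled no library closely (at most 0.80). Its counts were kept, and results in KRM RAS are also given without it. In the monocyte-derived groups *Hmgcs1* averaged 5.32 ± 1.00 (n = 3) in CD11chiMϕ Sham, 5.41 ± 0.53 (n = 4) in CD11chiMϕ RAS, 5.06 ± 0.72 (n = 3) in CD11cloMϕ Sham and 5.20 ± 0.24 (n = 4) in CD11cloMϕ RAS. Of the KRM Sham values only that of replicate 3, at 4.94, overlapped the monocyte-derived Sham groups, whose lowest values were 4.65 in CD11chiMϕ and 4.56 in CD11cloMϕ. In those groups too the library numbered 3 was the highest, at 6.47 and 5.88. Without the Sham libraries numbered 3, KRM lay below both groups without overlap.

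The regulators differed in how far they moved. *Srebf1* kept to a narrow range, with 66.2, 51.7 and 48.01 CPM in CD11chiMϕ Sham, 63.8, 69.4 and 65.9 in CD11cloMϕ Sham and 66.9, 56.3, 45.7 and 52.5 in KRM Sham. In RAS libraries it was 56.2, 43.5, 65.9 and 61.7 CPM in CD11chiMϕ, 67.8, 59.2, 47.3 and 60.3 in CD11cloMϕ and 46.8, 47.3 and 49.98 in KRM. Its 21 values lay between 43.5 and 69.4 CPM and edgeR called it in no comparison. *Srebf2* ranged more widely, at 195, 136 and 81.4 CPM in CD11chiMϕ Sham, 94.8, 93.04 and 137 in CD11cloMϕ Sham and 99.4, 94.5, 81.4 and 118 in KRM Sham. In RAS libraries *Srebf2* was 135, 174, 311 and 309 CPM in CD11chiMϕ, 106, 102, 82.7 and 122 in CD11cloMϕ and 66.8, 66.3 and 74.6 in KRM. CD11chiMϕ RAS replicates 3 and 4 held the 2 highest *Srebf2* values of the 21 libraries, and the 3 KRM RAS libraries the 3 lowest. *Insig1*, itself an SREBP target whose protein holds SCAP back, was 37.4, 41.7 and 28.4 CPM in CD11chiMϕ Sham, 51.8, 54.5 and 62.8 in CD11cloMϕ Sham and 25.5, 22.02, 25.4 and 29.1 in KRM Sham. With RAS it was 40.4, 46.7, 88.4 and 88.2, 45.02, 72.1, 68.9 and 78.4 and 17.4, 34.97 and 44.7 CPM in the same order of populations. The 15 sterol enzymes of the count table summed to 498, 478, 832 and 809 CPM in CD11chiMϕ RAS, against 475, 399.9, 379.5 and 494 in CD11cloMϕ RAS and 326, 414 and 376 in KRM RAS. The summed level was thus high in the same CD11chiMϕ RAS libraries, replicates 3 and 4, in which *Srebf2* was high. In Sham kidneys the sum was 466, 431 and 608 CPM in CD11chiMϕ, 454, 403 and 506 in CD11cloMϕ and 362, 348, 357 and 362 in KRM. Within CD11chiMϕ Sham the highest sum was in the library with the lowest *Srebf2*, and within CD11cloMϕ Sham in that with the highest.

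**Figure D1:**
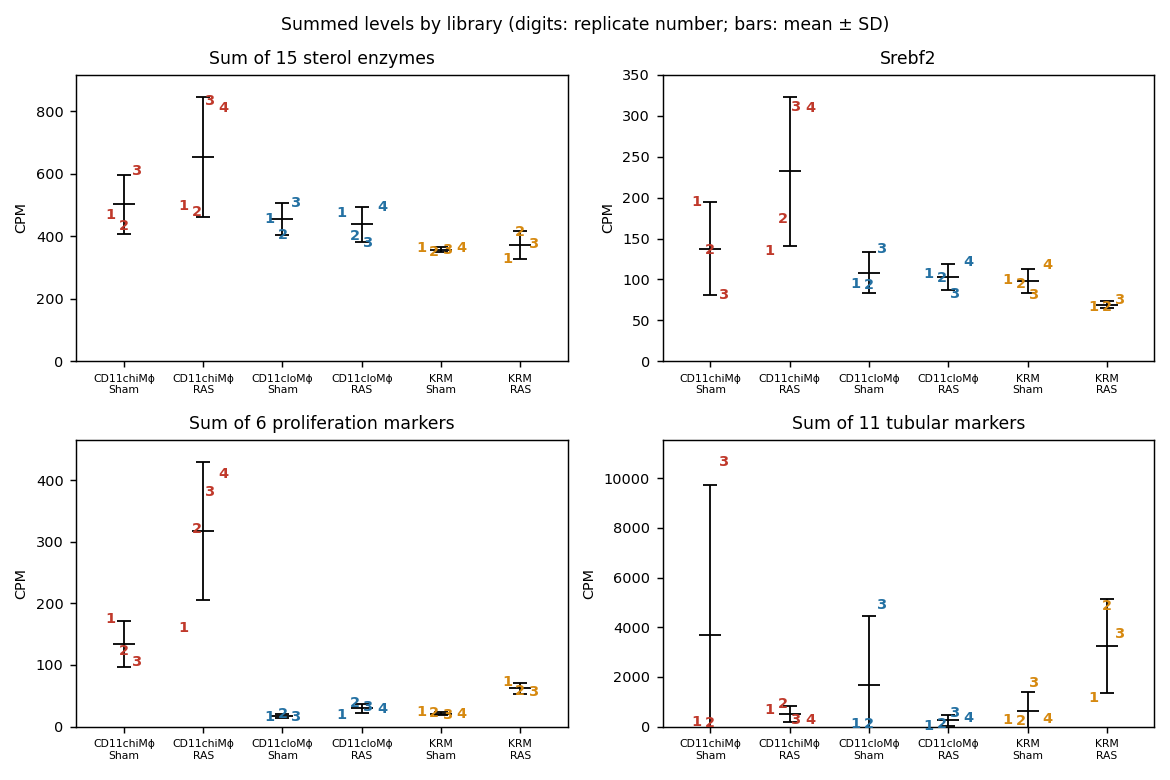
Summed CPM of the 15 sterol enzymes, CPM of *Srebf2*, and summed CPM of 6 proliferation and 11 tubular markers, by library (vertical axes in CPM from 0). Digits are replicate numbers, colours are populations and bars are the mean ± SD of each group. CD11chiMϕ RAS replicates 3 and 4 are highest for the sterol enzymes and *Srebf2*, while tubular markers are highest in CD11chiMϕ Sham replicate 3.

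In Sham kidneys, KRM and CD11cloMϕ differed in 12 of the 29 members, by edgeR's quasi-likelihood test with Benjamini-Hochberg adjustment over 12365 genes and an adjusted p under 0.05. KRM were lower in 9 members (5 sterol enzymes, 2 regulators and 2 fatty acid enzymes) and higher in 3 (*Fads1*, *Dhcr7* and *Insig2*). Of all genes tested 41.9% were called, 19.5% higher and 22.4% lower in KRM, so the members' share of 41.4% was near that of all genes. The median log2 difference over the members was -0.46, against -0.04 over all genes. Replicate numbers paired the Sham libraries, and adding them as a block left all but *Scap*, *Sc5d* and *Cyp51* called.

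Among the early sterol enzymes, *Mvd*, the diphosphomevalonate decarboxylase, was 9.99, 6.78, 9.13 and 6.70 CPM in KRM and 32.4, 29.2 and 34.6 in CD11cloMϕ. Every CD11cloMϕ library was above every KRM library, and the log2 difference was -1.99 ± 0.21, adjusted p = 0.000159. *Fdps* was 26.6, 24.1, 21.5 and 25.9 CPM in KRM and 48.9, 49.4 and 57.6 in CD11cloMϕ (-1.10 ± 0.13, adjusted p = 0.000274). *Fdft1*, the squalene synthase at the branch to sterols, was 16.01, 16.4, 16.6 and 18.6 CPM in KRM and 29.2, 27.5 and 24.6 in CD11cloMϕ (-0.70 ± 0.15, adjusted p = 0.00656). Neither *Fdps* nor *Fdft1* overlapped between the groups. *Dhcr7*, which makes cholesterol from 7-dehydrocholesterol in the last step, went the other way, at 42.1, 34.1, 39.2 and 37.1 CPM in KRM and 18.00, 14.4 and 19.6 in CD11cloMϕ. All 4 KRM libraries were above the 3 CD11cloMϕ libraries (1.12 ± 0.16, adjusted p = 0.000925). The lanosterol demethylase *Cyp51* (-0.64 ± 0.21, adjusted p = 0.0369) and the sterol desaturase *Sc5d* (-0.62 ± 0.17, adjusted p = 0.022) were also lower in KRM, without overlap. With the block their adjusted p-values were 0.067 and 0.0647. The *Cyp51* call was lost when any library but CD11cloMϕ Sham replicate 2 was left out (adjusted p 0.0519 to 0.0879), and without the Sham libraries numbered 3 its log2 difference was -0.29. The *Sc5d* call was lost without KRM Sham replicate 2 or 4 (0.0597 and 0.0583) or without CD11cloMϕ Sham replicate 1 (0.0892).

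Among the regulators, the *Insig1* values given above did not overlap between KRM and CD11cloMϕ Sham, and were lower in KRM (-1.16 ± 0.14, adjusted p = 0.000293). *Insig2*, which acts as *Insig1* does but is not an SREBP target, was higher in KRM at 36.2 to 43.1 CPM, against 19.3 to 29.2 CPM (0.72 ± 0.17, adjusted p = 0.0106). *Scap*, the escort of SREBP proteins, was 50.2, 53.05, 47.2 and 45.1 CPM in KRM and 69.9, 67.1 and 65.3 in CD11cloMϕ (-0.49 ± 0.11, adjusted p = 0.00815, or 0.0551 with the block). The 2 *Insig* genes thus lay in opposite order in these populations, without overlap in either.

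The fatty acid enzymes held the widest difference of the set. *Fads1* was 179, 195, 189.6 and 195 CPM in KRM and 13.8, 9.63 and 12.1 in CD11cloMϕ, a log2 difference of 3.98 ± 0.15, adjusted p = 1.62e-06, which is 15.8-fold. The gene lies at chromosome 19, 10182888 to 10196877 on the plus strand (GRCm38), beside *Fads2*, whose KRM values of 1.32, 2.12, 9.73 and 3.24 CPM overlapped those of CD11cloMϕ, 0.517, 0.928 and 19.03. *Acly* was 102, 130.1, 134 and 131 CPM in KRM and 337, 375 and 381 in CD11cloMϕ (-1.57 ± 0.13, adjusted p = 4.12e-05). Each CD11cloMϕ library held more *Acly* than any KRM library. *Scd2*, a stearoyl-CoA desaturase, was 22.03, 28.4, 26.4 and 26.9 CPM in KRM and 61.9, 45.7 and 34.7 in CD11cloMϕ (-0.90 ± 0.21, adjusted p = 0.0102). The CD11cloMϕ library with the least *Scd2* was replicate 3, in which tubular markers were high. Leaving out that library gave 11 calls, and no library left out gave fewer than 10.

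Neutrophil markers moved with the comparisons of CD11cloMϕ. The 5 of them summed to 1596, 1359 and 679 CPM in CD11cloMϕ Sham and 1547, 1783, 1463 and 2219 CPM in CD11cloMϕ RAS. In KRM the sum was 6.86, 4.34, 3.64 and 3.03 CPM in Sham and 10.8, 0.783 and 0.642 CPM in RAS, with *Ly6g* and *Camp* at 0 in every library. In CD11chiMϕ it was 32.5, 89.1 and 26.4 CPM in Sham and 195, 97.8, 5.56 and 3.28 CPM in RAS. *Ly6g*, the surface antigen of neutrophils, had at most 4 counts in any library, CD11cloMϕ included. Each CD11cloMϕ library was above every library of the other populations in this sum, which does not tell whether neutrophils were present. Adipocyte markers were 10.97, 15.7 and 10.4 CPM in CD11cloMϕ Sham and 4.94, 6.04, 5.39 and 3.56 in KRM Sham. Macrophage markers were 5116, 4866 and 4960 and 8213, 8247, 7549 and 8403 CPM, also without overlap. The part of these markers in the differences between CD11cloMϕ and the other populations was not tested.

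**Figure D2:**
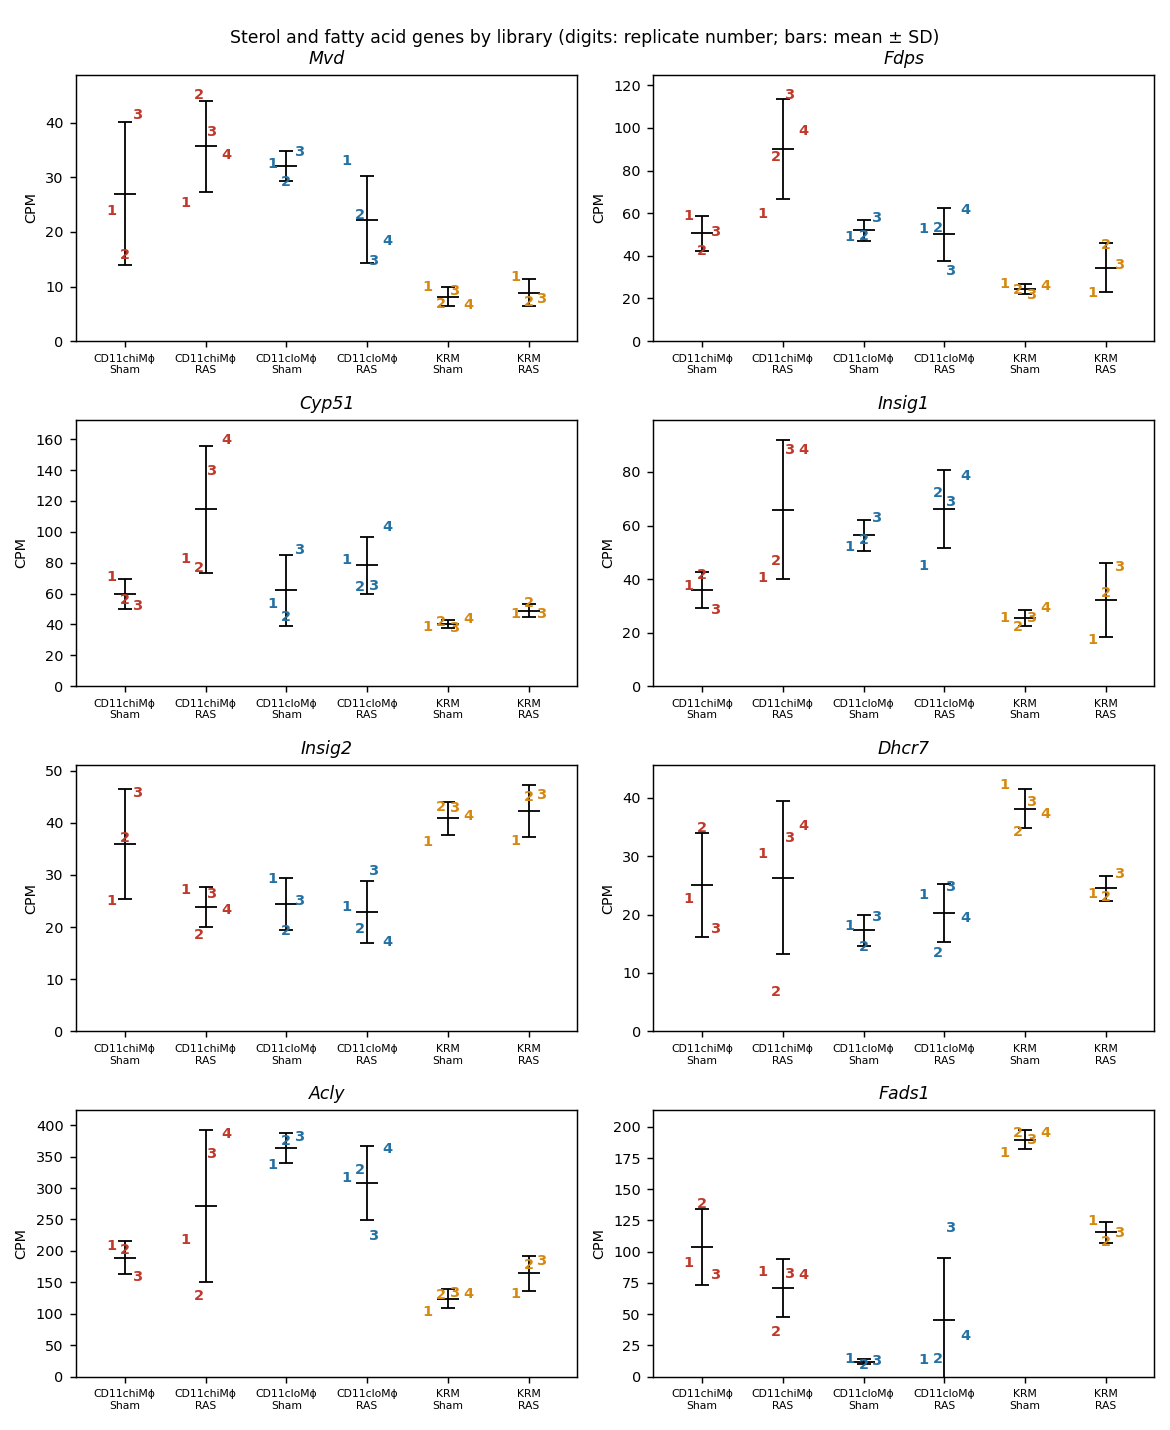
CPM of 8 members by library (vertical axes in CPM from 0). Digits are replicate numbers, colours are populations and bars are the mean ± SD of each group. KRM Sham libraries lie below all CD11cloMϕ Sham libraries for *Mvd*, *Fdps*, *Cyp51*, *Insig1* and *Acly*, and above them for *Insig2*, *Dhcr7* and *Fads1*, where 179 to 195 CPM face 9.63 to 13.8 CPM.

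Other genes of sterol and fatty acid handling were read in KRM and CD11cloMϕ Sham beside the 41.9% called among all genes. Of 11 further genes of sterol synthesis and SREBP processing, 1 was higher in KRM (*Rnf145*, a sterol-sensing ubiquitin ligase, 0.71 ± 0.12, adjusted p = 0.00172) and 3 were lower, so that 36.4% were called. Among the lower were *Msmo1* (-0.73 ± 0.17, adjusted p = 0.0088) and *Lbr* (-0.77 ± 0.24, adjusted p = 0.031, or 0.0609 with the block). Of 14 genes of uptake, storage and efflux, 6 were higher and 4 lower (71.4% called). *Mylip*, a ubiquitin ligase induced by sterol ligands, was higher (2.09 ± 0.15, adjusted p = 2.43e-05), as were *Ch25h*, which makes 25-hydroxycholesterol (5.63 ± 0.50, adjusted p = 6.61e-05), and the lysosomal lipase *Lipa* (0.99 ± 0.10, adjusted p = 0.000144). Of 16 further fatty acid genes, 5 were higher and 3 lower (50.0% called). Those with the smallest p were the acyl-CoA synthetases *Acsl1* (1.67 ± 0.18, adjusted p = 0.000189) and *Acsl3* (2.46 ± 0.32, adjusted p = 0.000508), *Mid1ip1*, an activator of acetyl-CoA carboxylase (-1.17 ± 0.17, adjusted p = 0.00102), and *Hacd2* (0.73 ± 0.15, adjusted p = 0.00599).

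Against CD11chiMϕ in Sham kidneys, KRM were lower in 4 members and higher in none. These were *Sqle*, *Fdps*, *Mvd* and *Scd2*. Of 12380 genes tested 5.13% were called, 4.13% lower and 1.0% higher in KRM, beside 13.8% of the members. The members' median log2 difference was -0.60, against -0.07 over all genes, and 24 of the 29 (82.8%) were lower in KRM, against 54.5% of all genes. At an unadjusted p under 0.05 stood 14 members (48.3%, against 24.5% of all genes), and DESeq2 called 11 (37.9%, against 14.6% of all genes).

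Proliferation markers moved with this comparison, with a sum of the 6 of 175, 122 and 105 CPM in CD11chiMϕ Sham and 23.1, 21.3, 18.2 and 20.8 in KRM Sham, and 15.6, 20.9 and 16.04 in CD11cloMϕ Sham. Adipocyte markers summed to 21.5, 13.8 and 48.8 CPM in CD11chiMϕ Sham and 4.94, 6.04, 5.39 and 3.56 in KRM Sham. Macrophage markers summed to 5130, 6328 and 1700 and to 8213, 8247, 7549 and 8403 CPM. In each of these lists KRM and CD11chiMϕ Sham did not overlap. The part of these markers in the member values was not tested.

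*Fdps* was 58.6, 42.1 and 51.2 CPM in CD11chiMϕ, above all 4 KRM libraries (-1.10 ± 0.17, adjusted p = 0.0151). *Mvd* was 23.8, 15.7 and 41.4 CPM, also without overlap (-1.80 ± 0.37, adjusted p = 0.0388). *Sqle*, the squalene epoxidase that commits squalene to sterols, was 42.6, 38.3 and 39.7 CPM in CD11chiMϕ and 27.7, 27.4, 25.5 and 29.8 in KRM (-0.60 ± 0.13, adjusted p = 0.0495). *Scd2* was 62.6, 56.8 and 44.99 CPM in CD11chiMϕ, again above every KRM library (-1.13 ± 0.16, adjusted p = 0.0127). None of the 4 stayed called with the replicate block (adjusted p 0.119, 0.12, 0.258 and 0.13 in that order). The count was 0 without CD11chiMϕ Sham replicate 1 or KRM Sham replicate 2 or 4, 1 without KRM Sham replicate 1 or 3, 5 without CD11chiMϕ Sham replicate 2 and 10 without CD11chiMϕ Sham replicate 3. Without all Sham libraries numbered 3 it was 9, and the log2 differences were -1.01 for *Fdps*, -1.37 for *Mvd*, -0.54 for *Sqle* and -1.24 for *Scd2*, with all but *Sqle* (adjusted p = 0.0649) called. The shares of all genes called in these refits are not given here, so the changed counts do not set the members apart from other genes.

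*Fads1* was 91.3, 138 and 81.3 CPM in CD11chiMϕ Sham, below the KRM libraries, and did not pass the test between those populations (0.83 ± 0.20, adjusted p = 0.0607). *Acat2* and *Nsdhl* were high in CD11chiMϕ Sham replicate 3, at 146 and 50.7 CPM, against at most 23.1 and 19.01 in the other libraries of that group. *Fads2* (38.1 CPM against 3.10 and 3.83) and *Scd1* (9.17 against 1.10 and 0.744) were high there too. That library also held the highest tubular marker sum, and the part of tubular RNA in these levels was not tested. Outside the members, none of 11 sterol synthesis genes and none of 16 fatty acid genes was called by edgeR (3 and 1 at an unadjusted p under 0.05, 2 and 1 by DESeq2), and *Ch25h* alone of 14 genes of uptake and efflux was higher in KRM (1.53 ± 0.23, adjusted p = 0.0144, or 0.0834 with the block).

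CD11chiMϕ and CD11cloMϕ in Sham kidneys differed in 1 of 28 members tested, *Fads1*. Its values of 81.3 to 138 CPM in CD11chiMϕ lay above 9.63 to 13.8 CPM in CD11cloMϕ (3.20 ± 0.28, adjusted p = 0.0191, or 0.0074 with the block). Of 12105 genes 1.52% were called, 0.917% higher and 0.603% lower in CD11chiMϕ. In the order of *Fads1* levels in Sham kidneys, KRM were thus highest, CD11chiMϕ next and CD11cloMϕ lowest, with no overlap between neighbours. The *Fads1* call was lost when any 1 library but CD11chiMϕ Sham replicate 3 was left out, with adjusted p up to 0.173 and log2 differences from 2.96 to 3.31. *Scd1* fell below the count filter in this comparison, at 0.207, 0.696 and 24.8 CPM in CD11cloMϕ Sham. *Ch25h* was the only gene of the other lists that was called (4.15 ± 0.69, adjusted p = 0.0492).

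**Figure D3:**
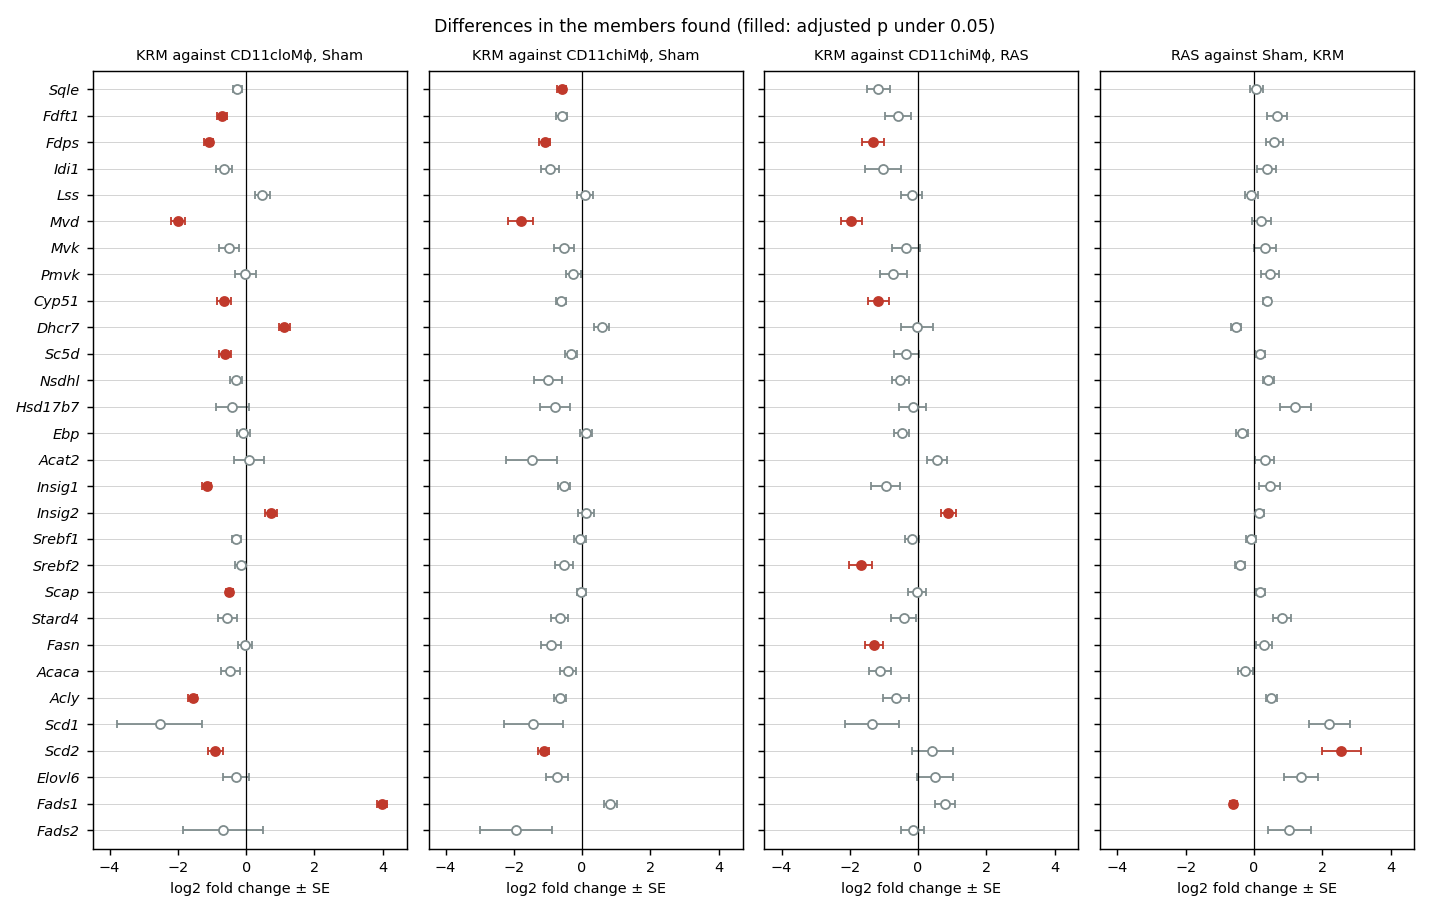
Log2 fold change ± SE of the 29 members in 4 comparisons (horizontal axes; the first named group minus the second). Filled points passed an adjusted p of 0.05. The points lie mostly left of 0 in the 3 drawn comparisons of KRM with other populations, with medians of -0.46, -0.60 and -0.48 (KRM against CD11cloMϕ in RAS, not drawn, had a median of 0.07), and mostly right of 0 for RAS against Sham in KRM, with a median of 0.33.

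In RAS kidneys, KRM were lower than CD11chiMϕ in 5 members (*Fdps*, *Mvd*, *Cyp51*, *Srebf2* and *Fasn*) and higher in 1 (*Insig2*). Of 13226 genes 9.23% were called, 4.17% higher and 5.07% lower, beside 20.7% of the members. At an unadjusted p under 0.05 stood 9 members (31.0%, against 29.8% of all genes), and DESeq2 called 8 (27.6%, against 20.8% of all genes). The median over the members was -0.48, against 0.03 over all genes, and 24 of 29 (82.8%) were lower, against 48.2% of all genes. With libraries scaled by their total counts these medians were -0.22 and 0.26, and 45.0% of called genes were lower, against 54.9% with TMM.

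*Fdps* was 22.5, 45.3 and 35.5 CPM in KRM RAS and 59.9, 86.5, 115 and 98.5 in CD11chiMϕ RAS (-1.32 ± 0.33, adjusted p = 0.0456). *Mvd* was 11.7, 7.13 and 7.80 CPM and 25.2, 45.1, 38.3 and 34.01 CPM in the same order (-1.96 ± 0.31, adjusted p = 0.0224). Neither gene overlapped between these groups. *Cyp51* was 46.5, 53.8 and 46.8 CPM in KRM and 82.6, 76.3, 139.7 and 159 in CD11chiMϕ (-1.16 ± 0.30, adjusted p = 0.0494). For *Srebf2*, whose values stand above, the difference was -1.68 ± 0.34, adjusted p = 0.0319. *Insig2* was 36.6, 44.9 and 45.3 CPM in KRM and 27.02, 18.6, 26.4 and 23.2 in CD11chiMϕ, so that each KRM library was above each CD11chiMϕ library (0.89 ± 0.21, adjusted p = 0.0421). *Fasn*, the fatty acid synthase, was 19.7, 28.97 and 28.98 CPM in KRM and 57.1, 51.4, 74.6 and 83.6 in CD11chiMϕ, without overlap (-1.30 ± 0.26, adjusted p = 0.0318). No call was left without CD11chiMϕ RAS replicate 3 or 4 or without KRM RAS replicate 2 or 3, 1 was left without CD11chiMϕ RAS replicate 2, 5 without KRM RAS replicate 1 and 6 without CD11chiMϕ RAS replicate 1. With both KRM RAS replicates 2 and 3 left out none was called, and the 6 log2 differences kept their signs, from -1.95 for *Fdps* to 0.66 for *Insig2*. Without KRM RAS replicate 1 the 5 called were these but for *Cyp51*, beside 19.6% of all genes.

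CD11chiMϕ RAS replicates 3 and 4 were much alike, with a chi-square per degree of freedom of 5.13 between their counts, against 94.34 to 127.92 in the other pairs of that group, and the labels do not say whether they came from separate mice. The study's methods state n = 3 for RAS in CD11chiMϕ and in CD11cloMϕ, against the 4 libraries of each fitted here.

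Proliferation markers moved with this comparison as well. The sum of the 6 was 159.5, 321, 380.1 and 410.5 CPM in CD11chiMϕ RAS and 72.1, 58.5 and 55.7 in KRM RAS, and its part in the sterol genes was not tested. Outside the members, *Acsl1* (1.13 ± 0.29, adjusted p = 0.048) and *Me1*, a source of NADPH for lipid synthesis (1.69 ± 0.42, adjusted p = 0.046), were higher in KRM RAS. Without KRM RAS replicates 2 and 3 these differences were 1.22 (adjusted p = 0.541) and 2.06 (adjusted p = 0.508). These were 2 of 16 fatty acid genes, and edgeR called none of the 11 other sterol synthesis genes (2 at an unadjusted p under 0.05, 0 by DESeq2).

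KRM and CD11cloMϕ in RAS kidneys differed in 1 member, *Insig2*, at 23.8, 19.7, 30.8 and 17.2 CPM in CD11cloMϕ, below the KRM RAS values (0.94 ± 0.22, adjusted p = 0.043). Of 13179 genes 9.17% were called, 3.28% higher and 5.89% lower, and 64.2% of the called genes were lower. With libraries scaled by total counts that share was 34.1%, and the members' median went from 0.07 to 0.28 as that of all genes went from 0.06 to 0.27. *Insig2* kept its direction under that scaling too, and its call was lost without KRM RAS replicate 2 or 3 (adjusted p 0.157 and 0.167) or without CD11cloMϕ RAS replicate 1, 2 or 4 (0.0755, 0.116 and 0.0995). The count of called members was 5 without CD11cloMϕ RAS replicate 3 and 4 without KRM RAS replicate 1 (*Elovl6*, *Insig2* and *Scd2* higher and *Mvd* lower, beside 23.0% of all genes). For the 5 the share of all genes is not given here, so it is not a result about the members. Without KRM RAS replicates 2 and 3 the *Insig2* difference was 0.71 (adjusted p = 0.433). Tubular markers summed to 1159, 4855 and 3740.2 CPM in KRM RAS and 28.1, 92.6, 527 and 348 in CD11cloMϕ RAS. Proliferation markers summed to 72.1, 58.5 and 55.7 and to 19.4, 37.95, 31.00 and 29.1 CPM, and neither list overlapped. The part of these markers in the members was not tested. *Fads1* was 13.5, 13.96, 119 and 32.7 CPM in CD11cloMϕ RAS, where replicate 3 was within the range of KRM RAS, 125, 108 and 115. *Ch25h* ranged from 0.836 to 59.8 CPM over the 4 CD11cloMϕ RAS libraries. Of the other lists, *Lbr* (149.8 CPM on average against 307 CPM, adjusted p = 0.0392) and *Soat1*, which esterifies cholesterol for storage (-1.11 ± 0.26, adjusted p = 0.0438), were lower in KRM RAS. Without KRM RAS replicates 2 and 3 these log2 differences were -0.67 (adjusted p = 0.385) and -0.82 (adjusted p = 0.423).

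CD11chiMϕ were higher than CD11cloMϕ in RAS kidneys in 2 members, *Fasn* and *Srebf2*, and lower in none. Of 12305 genes 8.27% were called, 5.15% higher and 3.12% lower in CD11chiMϕ, beside 6.9% of the members. The members' median was 0.65, against 0.01 over all genes. At an unadjusted p under 0.05 stood 13 members (44.8%, against 25.8% of all genes), all higher in CD11chiMϕ, where 14.6% of all genes were, and DESeq2 called 8 (27.6%, against 16.7% of all genes). *Fasn* was 18.3, 33.1, 32.4 and 33.2 CPM in CD11cloMϕ RAS, below every CD11chiMϕ RAS library (1.18 ± 0.25, adjusted p = 0.022). The *Srebf2* groups did not overlap either (1.16 ± 0.29, adjusted p = 0.0405). The count was 7 without CD11chiMϕ RAS replicate 1, 0 without CD11chiMϕ RAS replicate 3 or 4 or CD11cloMϕ RAS replicate 2 or 4, 1 without CD11chiMϕ RAS replicate 2 or CD11cloMϕ RAS replicate 1 and 2 without CD11cloMϕ RAS replicate 3 (*Fasn* and *Fads1*). The shares of all genes called in these refits are not given here, so the 7 cannot be set beside such a share. *Srebf2* stayed called only without CD11chiMϕ RAS replicate 1 (adjusted p = 0.00808), and was at 0.0525 to 0.127 without any other library. *Fasn* stayed called without CD11chiMϕ RAS replicate 1 or 2 or CD11cloMϕ RAS replicate 1 or 3, and was at 0.0553 to 0.0743 without any other. Of the genes outside the members, 1 of 11 for sterol synthesis was called, higher in CD11chiMϕ, none of 14 for uptake and efflux was called by edgeR (2 at an unadjusted p under 0.05, 1 by DESeq2), and of 16 fatty acid genes *Mid1ip1* alone was called, lower (-1.21 ± 0.25, adjusted p = 0.0222). Proliferation markers summed to 19.4, 37.95, 31.00 and 29.1 CPM in CD11cloMϕ RAS, all below CD11chiMϕ RAS. Lymphocyte markers summed to 22.4, 8.95, 13.5 and 17.5 CPM in CD11cloMϕ RAS, all below the 111, 48.3, 29.9 and 37.1 CPM of CD11chiMϕ RAS. The part of both lists was not tested.

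The effect of RAS on each population was asked next. In KRM, 2 members changed: *Scd2* rose and *Fads1* fell. Of 12852 genes 9.7% were called, 7.77% higher and 1.94% lower in RAS, beside 6.9% of the members. The members' median was 0.33, against 0.02 over all genes. At an unadjusted p under 0.05 stood 12 members (41.4%, against 34.0% of all genes), and DESeq2 called 8 (27.6%, against 24.6% of all genes). The Sham libraries are those already compared with the other Sham populations, so these results share them.

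*Scd2* was 29.3, 214 and 179 CPM in KRM RAS and 22.03, 28.4, 26.4 and 26.9 in KRM Sham. Replicates 2 and 3 were far above all other KRM libraries, and replicate 1 was just above the highest Sham library (2.56 ± 0.57, adjusted p = 0.0365). Without replicates 2 and 3 the log2 difference was 0.22 (adjusted p = 0.843). *Fads1* was 125, 108 and 115 CPM in KRM RAS and 179, 195, 189.6 and 195 in KRM Sham, lower in every RAS library than in any Sham library (-0.61 ± 0.11, adjusted p = 0.0253). Without RAS replicates 2 and 3 the *Fads1* difference was -0.56 (adjusted p = 0.209). The count of called members was 13 without RAS replicate 1 (44.8%, against 50.2% of all genes), 2 without Sham replicate 3 (*Fads1* and *Fads2*) and 0 without any other library. *Scd2* stayed called only without RAS replicate 1 (adjusted p = 6.94e-06), and was at 0.0534 to 0.132 without any other library. *Fads1* stayed called without RAS replicate 1 (adjusted p = 0.00149) or Sham replicate 3 (0.0358), and was at 0.0667 to 0.0939 without any other library.

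*Scd1* and *Elovl6*, which lengthens palmitate before desaturation, were also high in RAS replicates 2 and 3, without passing the test. *Scd1* was 1.38, 8.26 and 8.99 CPM in KRM RAS and 1.08, 1.59, 1.35 and 1.78 in KRM Sham (2.21 ± 0.61, adjusted p = 0.0568). *Elovl6* was 4.62, 24.4 and 17.2 and 5.54, 7.20, 5.29 and 7.85 CPM (1.37 ± 0.49, adjusted p = 0.101). Without RAS replicates 2 and 3 the *Scd1* difference was -0.03 and that of *Elovl6* -0.44, and without RAS replicate 1 they were 2.64 and 1.76, both called. In all 3 genes RAS replicate 1 lay within or close to the Sham range and replicates 2 and 3 above it. *Scd1* and *Scd2* are closely related neighbours on chromosome 19 (44394455 to 44407879 and 44293674 to 44306864, GRCm38), so reads could have been divided between them in counting. *Dhcr7* fell short of the threshold at 23.5, 23.1 and 26.96 CPM in RAS, with all 3 below the Sham libraries (-0.53 ± 0.14, adjusted p = 0.0525).

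**Figure D4:**
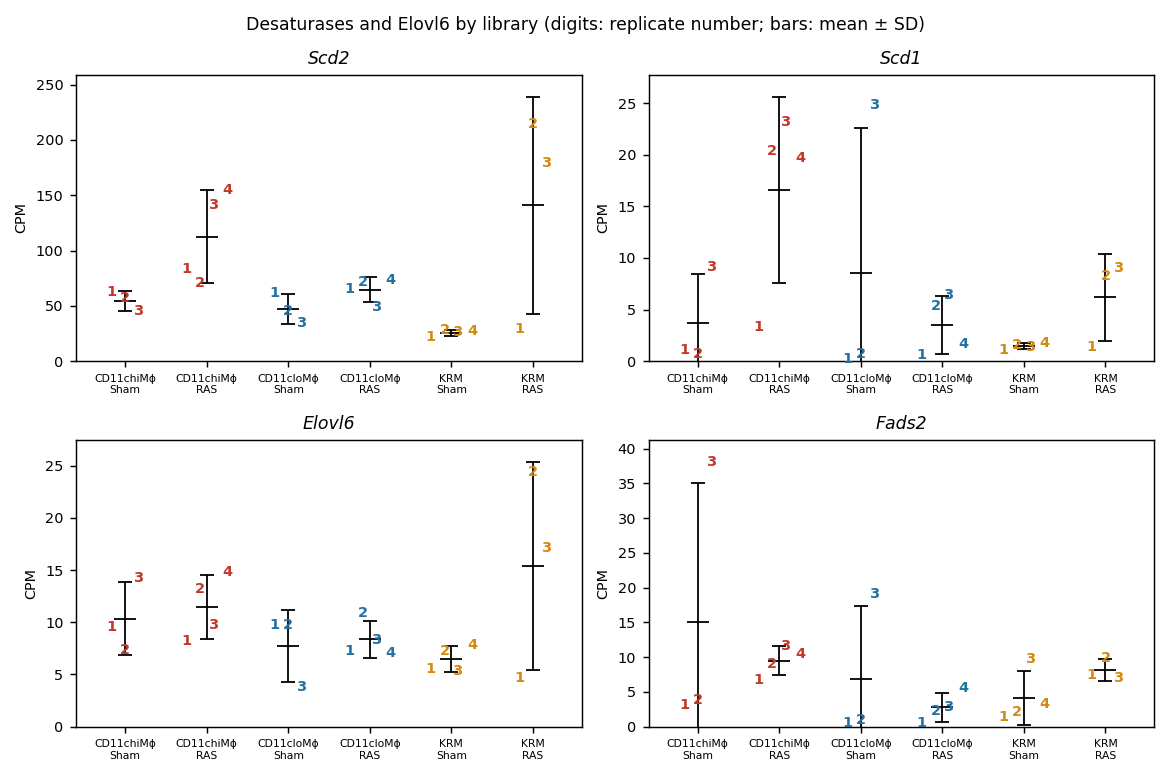
CPM of *Scd2*, *Scd1*, *Elovl6* and *Fads2* by library (vertical axes in CPM from 0). Digits are replicate numbers, colours are populations and bars are the mean ± SD of each group. In KRM RAS, replicates 2 and 3 of *Scd2* lie at 214 and 179 CPM and replicate 1 at 29.3 CPM, and in the Sham groups replicate 3 is the highest for *Fads2*.

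Marker lists of other cell types moved with these KRM libraries. Tubular markers, given above, and fibroblast and pericyte markers (42.7, 346 and 432 CPM in RAS and 32.9, 34.3, 19.1 and 39.2 in Sham) were highest in RAS replicates 2 and 3. So were the 7 endothelial markers (14.7, 193 and 163 and 9.63, 15.5, 11.1 and 21.8 CPM) and the 7 adipocyte markers (3.74, 28.6 and 29.3 and 4.94, 6.04, 5.39 and 3.56 CPM). The 7 lymphocyte markers (150.1, 24.8 and 20.4 and 9.03, 2.75, 4.64 and 5.65 CPM) were highest in RAS replicate 1. The 6 proliferation markers, given above, were at 55.7 to 72.1 CPM in RAS and 18.2 to 23.1 CPM in Sham. In both lists all 3 RAS libraries were above the Sham libraries. Of these lists only *Lep* was at 0 in all KRM Sham libraries, and the macrophage sum was 6956, 3819 and 4865 CPM in RAS against 8213, 8247, 7549 and 8403 in Sham. The part of such RNA in the *Scd2* and *Fads1* values was not tested. Outside the members, *Abca1*, the cholesterol exporter, rose in KRM RAS (0.96 ± 0.19, adjusted p = 0.0291), *Ch25h* fell (-1.06 ± 0.24, adjusted p = 0.0386) and *Acsl3* fell (-0.60 ± 0.12, adjusted p = 0.0305). Without RAS replicates 2 and 3 these differences were 1.06 (adjusted p = 0.131), -0.59 (adjusted p = 0.325) and -0.46 (adjusted p = 0.351), in that order. Of the 11 other sterol synthesis genes none was called by edgeR (3 at an unadjusted p under 0.05, 1 by DESeq2).

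In CD11chiMϕ and in CD11cloMϕ, RAS against Sham gave no called member by edgeR, and 0% of all 12739 and 12301 genes were called. DESeq2 called no member in either, beside 1.48% and 0.87% of all genes. In CD11chiMϕ 7 members had an unadjusted p under 0.05 (24.1%, against 9.79% of all genes), and the members' median was 0.36, against -0.09. Of all genes 4.96% were higher and 4.83% lower at that threshold. Of these 7, the 5 with a log2 difference above 0 were *Scd2* (log2 difference 0.95 ± 0.33, adjusted p = 0.508), *Fdps* (0.74 ± 0.28), *Cyp51* (0.85 ± 0.32), *Insig1* (0.79 ± 0.34) and *Pmvk*, the phosphomevalonate kinase (0.86 ± 0.37). *Acat2* (-1.78 ± 0.72) and *Insig2* (-0.69 ± 0.29) were below 0. Without CD11chiMϕ Sham replicate 3 the *Acat2* difference was -0.12 ± 0.33 and that of *Insig2* -0.43 ± 0.28, the other 5 lay between 0.68 and 0.91, and only *Fdps* and *Scd2* kept an unadjusted p under 0.05. With all libraries only *Scd2*, *Fdps* and *Cyp51* did not overlap, and in each CD11chiMϕ RAS replicates 3 and 4 were the highest libraries. *Scd2* was 82.9, 70.5, 141 and 155 CPM in those 4 RAS libraries. Markers of other kinds moved with this comparison. Fibroblast and pericyte markers summed to 31.1, 314, 84.6 and 134 CPM in CD11chiMϕ RAS and 18.1, 23.1 and 23.9 in Sham, and lymphocyte markers to 111, 48.3, 29.9 and 37.1 and 5.20, 9.14 and 20.4 CPM, without overlap in either. Proliferation markers, given above, were over every Sham library in RAS replicates 2, 3 and 4. The part of these in the member values was not tested.

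In CD11cloMϕ 2 members had an unadjusted p under 0.05 (6.9%, against 8.96% of all genes), *Mvk*, the mevalonate kinase (-1.03 ± 0.39, adjusted p = 0.553), and *Fads1* (1.91 ± 0.79, adjusted p = 0.553). The *Fads1* difference rested on replicates 3 and 4, since the other 2 RAS libraries lay at 13.5 and 13.96 CPM beside 9.63 to 13.8 in Sham. Without CD11cloMϕ Sham replicate 3 the differences were -0.70 ± 0.43 for *Mvk* and 1.95 ± 0.96 for *Fads1*, neither at an unadjusted p under 0.05. CD11cloMϕ RAS replicates 3 and 4 also held more tubular (28.1, 92.6, 527 and 348 CPM), endothelial (20.6, 23.2, 74.1 and 207 CPM) and macrophage markers (5639.6, 5389, 8978 and 6596 CPM) than replicates 1 and 2, and the part of these in *Fads1* was not tested. Of the listed genes outside the members none was called in either population by edgeR or DESeq2. At an unadjusted p under 0.05 stood 0 of 11 sterol synthesis, 0 of 14 uptake and efflux and 4 of 16 fatty acid genes in CD11chiMϕ, and 1, 3 and 3 of them in CD11cloMϕ.

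Whether the change with RAS differed between populations was tested as an interaction. No member was called in any of the 3 pairs of populations by edgeR, among 0% of 14137 genes for KRM against CD11chiMϕ, 0.245% of 13877 for KRM against CD11cloMϕ and 0% of 13540 for CD11chiMϕ against CD11cloMϕ. DESeq2 called 0, 1 and 0 members, the 1 being *Scd2*, beside 8.64%, 10.2% and 0.111% of all genes. At an unadjusted p under 0.05 stood 5, 7 and 3 members, beside 21.2%, 23.7% and 6.65% of all genes. For *Scd2* the change was larger in KRM by 1.55 ± 0.68, adjusted p = 0.214 on the log2 scale against CD11chiMϕ and by 2.07 ± 0.65, adjusted p = 0.103 against CD11cloMϕ. For *Fads1* the change in KRM was lower than that in CD11cloMϕ by a log2 difference of -2.57 ± 0.84, adjusted p = 0.11, and for *Srebf2* lower than that in CD11chiMϕ by -1.13 ± 0.45, adjusted p = 0.174. Without KRM RAS replicates 2 and 3 the *Scd2* differences were -0.76 and -0.21, that of *Fads1* was -2.48 and that of *Srebf2* -1.21, with adjusted p from 0.831 to 0.983. Without KRM RAS replicate 1, 2 members (*Elovl6* and *Scd2*) were called against CD11chiMϕ, beside 7.4% of all genes, and 5 (*Acly*, *Elovl6*, *Fdft1*, *Mvk* and *Scd2*) against CD11cloMϕ, beside 16.1%. The *Scd2* difference thus lay above 0 with all libraries and without replicate 1, and below 0 without replicates 2 and 3.

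Of the 29 members, edgeR called 15 in at least 1 comparison and 14 in none with all libraries in, and DESeq2 called 8 of those 14 in at least 1. Among the sterol enzymes the uncalled ones were *Idi1*, *Lss*, *Mvk*, *Pmvk*, *Nsdhl*, *Hsd17b7*, *Ebp* and *Acat2*. *Ebp* went from 49.1 to 91.8 CPM over the 21 libraries, and *Lss*, the lanosterol synthase, from 10.03 to 25.4 CPM. *Mvk* ranged from 2.47 to 11.2 CPM and *Hsd17b7*, a ketosteroid reductase of the path, from 2.41 to 17.4 CPM. *Idi1*, the isopentenyl diphosphate isomerase, ranged from 15.2 to 83.04 CPM, *Pmvk* from 7.08 to 36.5 and *Nsdhl*, a sterol dehydrogenase, from 12.4 to 50.7. *Acat2*, the acetyl-CoA acetyltransferase at the entry, ranged from 9.40 to 146 CPM, and its closely related neighbour *Acat3* could share its reads. Of the others, *Srebf1*, the sterol carrier *Stard4* (8.55 to 28.4 CPM), *Acaca*, the acetyl-CoA carboxylase (6.68 to 24.4 CPM), *Elovl6* (3.76 to 24.4 CPM), *Scd1* (0.207 to 24.8 CPM) and *Fads2*, the desaturase at the entry to polyunsaturated fatty acids (0.515 to 38.1 CPM), were called in none. At 3 or 4 libraries a group, a p above the threshold does not show that these genes were alike between populations.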

How the data were processed

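RNA of flow-sorted macrophages was amplified (SMART-Seq v4 Ultra Low-Input), made into Nextera XT libraries and sequenced paired-end, and the authors aligned reads to mm10 with the OSA aligner against Ensembl R83. The authors deposited estimated counts per gene (8.6 to 12.2% of values per library were more than 0.001 from a whole number) and a table of log2(TPM + 1) values after quantile normalization. The submitters' processing notes also name DESeq2. The kit does not mark strand, so reads of overlapping genes cannot be told apart.

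Here, lines of 1 symbol were summed (37620 lines, 34236 symbols) and counts rounded. Each comparison was fitted with the libraries of its groups only, by edgeR 4.0.16 in R 4.3.3 (TMM factors, a minimum count of 10 and minimum total of 15, quasi-likelihood F test, two-sided, Benjamini-Hochberg over all genes tested). A gene was called at an adjusted p under 0.05. Log2 differences are those of edgeR at its default settings and are given ± SE. A prior count of 2 was used only for the correlations between same-numbered libraries. The fit was tested on simulated data before use. *Msmo1* is *Sc4mol* in the table and *Hacd2* is *Ptplb*. Gene positions are from GENCODE annotation of GRCm38.

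The 30 members and the lists of other genes and markers were chosen with earlier results of these data known. Values in every library are given for called members, at most the 8 with the smallest p in a comparison, and for *Srebf1*, *Srebf2* and *Insig1*; other listed genes are named where called, at most 4 a list. Certain genes of these lists entered the counts and are not reported here by name. Some members outside that rule are named for their levels, chosen after their values were seen. Over the 27 replicate pairs, chi-square per degree of freedom was 5.13 (CD11chiMϕ RAS replicates 3 and 4) or more, above counting noise, and all were kept as separate libraries, which does not tell separate mice from repeats. Same-numbered libraries deviated together in the 3 comparisons of Sham populations (r from 0.201 to 0.647 over the pairs), where the replicate number is given as a block. Alternatives were other scalings, no filter, 1 fit over all 6 groups, the block, DESeq2 1.42.0, the study's rule (fold above 2, unadjusted p under 0.05), each library left out and the Sham libraries numbered 3 left out. Leaving out KRM RAS replicates 2 and 3 was added after seeing the data; the lone library left is assumed to vary like the other group.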

Additional observations from a re-analysis of the deposited data

Results flagged for a closer look

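Values that stood apart from the rest of their group were looked for in the 3 groups of 4 libraries, and marked where the gap of the lowest or highest library to its nearest passed Dixon's critical value for 4 values; this gave 5 of 87 values, and chance gives about 1 in 20. In CD11chiMϕ RAS, replicate 2 was far below the others in 3 members. *Dhcr7* was 6.82 CPM there against 30.3 to 35.1 CPM, *Acat2* 12.1 against 21.6 to 23.2 CPM, and *Fads1* 36.0 against 81.3 to 83.5 CPM. In CD11cloMϕ RAS, *Fasn* was 18.3 CPM in replicate 1 against 32.4 to 33.2 CPM in the others. In KRM Sham, *Acly* was 102 CPM in replicate 1 against 130.1 to 134 CPM.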

How the results depend on the processing

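Of the 421 values of single called members under another setting, none reversed, 273 stayed called and 148 did not. DESeq2 kept 28 of 28 calls and the replicate block 11 of 28. The counts of called members were 4 for KRM against CD11chiMϕ, Sham (0 to 10 with 1 library left out), and 2 with no filter, 2 in 1 fit over all groups, 0 with the replicate block, 11 by DESeq2 and 9 without the Sham libraries numbered 3. For KRM against CD11cloMϕ, Sham, they were 12 (10 to 12), 7 in 1 fit and 6 by the fold rule. For CD11chiMϕ against CD11cloMϕ, Sham, they were 1 (0 to 2), 2 by DESeq2 and 3 without the libraries numbered 3. For KRM against CD11chiMϕ, RAS, they were 6 (0 to 6), and 0 with the block or without KRM RAS replicates 2 and 3. For KRM against CD11cloMϕ, RAS, they were 1 (0 to 5), 0 with no filter, the block or without those replicates, 4 in 1 fit and 3 by DESeq2. For CD11chiMϕ against CD11cloMϕ, RAS, they were 2 (0 to 7), 5 in 1 fit, 8 by DESeq2 and 5 by the fold rule. For RAS against Sham in KRM they were 2 (0 to 13), 1 in 1 fit, 0 with the block or without those replicates, 8 by DESeq2 and 4 by the fold rule. For RAS against Sham in CD11chiMϕ and CD11cloMϕ they were 0 (0 to 0), and 1 and 2 by the fold rule. For the differences between responses they were 0 for KRM against CD11chiMϕ (0 to 2), and 3 by the fold rule, 0 for KRM against CD11cloMϕ (0 to 5), 3 by the fold rule and 1 by DESeq2, and 0 for CD11chiMϕ against CD11cloMϕ (0 to 0), and 1 by the fold rule. Ranges are for the adjusted p of edgeR. The share of all genes called is not given for each of these settings, so a changed count is not a result about the members. The block changed no other count by over 1.5 times. For CD11chiMϕ against CD11cloMϕ, RAS, *Fasn* stayed called with the block and *Srebf2* did not. In the RAS populations r was from 0.053 to 0.505 over the pairs, and in RAS against Sham from -0.196 to 0.325. The rule used for a pairing, every r above 0.1, was not met there. Whether same-numbered RAS libraries share an origin is not settled by these values. Total library size as the scaling moved the median of all genes by over 0.1 in KRM RAS against CD11chiMϕ RAS (0.03 to 0.26) and CD11cloMϕ RAS (0.06 to 0.27), and in both differences of response that hold KRM. The causes of these changes were not tested. With 3 or 4 libraries a group and *Scd1* or *Fads2* near 1 CPM in some, small differences in such genes were not detectable.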
